A study of Mus musculus with 8 samples.

Results

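Immediate-early transcription factors were followed in bone marrow-derived dendritic cells (BMDC) with and without engulfed ferroptotic cells. The 10 genes, Fos, Fosb, Jun, Junb, Egr1, Egr2, Egr3, Nr4a1, Ier2 and Dusp1, were taken by symbol from the 55487 mouse gene identifiers counted, and all 10 were among the 15411 genes that passed the filter on low counts. Of these genes 8 encode DNA-binding transcription factors, while Ier2 encodes a small nuclear protein without a known DNA-binding domain and Dusp1 a phosphatase. BMDC were grown from wild-type C57/bl6 mouse bone marrow in 20 ng/ml GM-CSF for 10 days according to the sample labels (day 9 to 10 in the study's methods). Untreated BMDC gave 4 libraries (BMDC). The other 4 (BMDC-fer) came from BMDC of the same genotype and culture that were fed for 4 h with Jurkat cells, an established human T-cell leukemia line killed by ferroptosis with 0.5 µM ML162 for 14 h, and then sorted for cells that had taken up Jurkat material. Ferroptosis is an iron-dependent death by lipid peroxidation, and ML162 triggers it by blocking the lipid peroxidase GPX4. The control cells are not described as co-cultured, washed free of Jurkat cells or sorted, so engulfment, contact, washing and sorting cannot be told apart in any difference between the groups. Whether reads of human Jurkat RNA carried into the sorted cells were counted to mouse genes was not tested.

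Immediate-early genes are transcribed within minutes of a stimulus from factors that are already in the cell, mainly SRF with its ETS partners and CREB, which MAP kinases and calcium signals activate. Their mRNAs are short-lived, so a level reflects the recent past of a culture. FOS proteins pair with JUN proteins to form AP-1, EGR proteins are zinc-finger factors, NR4A1 is an orphan nuclear receptor, and DUSP1 removes the activating phosphates from p38, JNK and ERK and so closes the loop. In dendritic cells and macrophages these genes respond to microbial products, growth factors and stress.

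The DNA just upstream of the AP-1 genes is shown because these genes took different courses between libraries although they are usually named together. RefSeq gives at least 1 promoter window on GRCm38.p6 for 7 of the 10 genes (not for Egr1, Egr3 and Ier2). The 250 bases before the RefSeq start are printed 5′ to 3′ on the gene's strand for Fos (chr12:85473640-85473889, plus strand), Fosb (chr7:19310046-19310295, minus strand), Jun (chr4:95052223-95052472, minus strand) and Junb (chr8:84978749-84978998, minus strand). Capitals mark the CRE half-site TGACG, to which CREB and ATF proteins bind, the CRE-like TGACATCA of Jun, and the TATA box TATAAA of Fos.
Fos: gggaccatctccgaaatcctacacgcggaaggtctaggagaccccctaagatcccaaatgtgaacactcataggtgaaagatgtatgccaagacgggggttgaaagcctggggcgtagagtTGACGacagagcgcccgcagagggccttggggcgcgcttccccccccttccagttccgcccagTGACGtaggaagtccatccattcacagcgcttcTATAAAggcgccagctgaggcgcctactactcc
Fosb: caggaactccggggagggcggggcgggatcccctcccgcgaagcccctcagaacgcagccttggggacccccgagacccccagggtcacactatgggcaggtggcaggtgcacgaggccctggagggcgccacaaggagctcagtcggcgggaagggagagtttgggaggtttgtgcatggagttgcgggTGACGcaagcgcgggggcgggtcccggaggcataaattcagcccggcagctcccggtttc
Jun: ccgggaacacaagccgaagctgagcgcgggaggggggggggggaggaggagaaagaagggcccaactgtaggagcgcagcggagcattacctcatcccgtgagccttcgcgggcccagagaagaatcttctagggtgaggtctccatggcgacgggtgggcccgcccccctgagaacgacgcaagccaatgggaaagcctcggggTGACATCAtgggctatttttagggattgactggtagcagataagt
Junb: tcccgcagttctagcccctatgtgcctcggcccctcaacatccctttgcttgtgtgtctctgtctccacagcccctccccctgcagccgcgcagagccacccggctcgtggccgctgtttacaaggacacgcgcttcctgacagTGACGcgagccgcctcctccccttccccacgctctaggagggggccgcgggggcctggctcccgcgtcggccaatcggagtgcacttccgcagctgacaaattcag
On either strand, the half-site TGACG was found upstream of 6 of the 7 genes (Fos, Fosb, Junb, Egr2, Nr4a1 and Dusp1) and in 17.7% of all 32817 windows of this length. A gene was counted if any of its windows held the motif, and Egr2 has 5 windows, while the shares are per single window. This short motif was chosen after the sequences had been seen. Another short motif, GGGCGG, was also found upstream of 6 of the 7 genes (32.7% of all windows). The full CRE TGACGTCA, which contains the half-site, occurred upstream of Dusp1 alone (1.55% of all windows). Jun was the gene without the half-site, and its TGACATCA occurred in 2.93% of all windows. TATAAA was found for Fos (12.4% of all windows) and a CArG box, the SRF site, for Egr2 (1.47%). The AP-1 site TGACTCA (4.46%) and the EGR site GCGTGGGCG (0.536%) were in none of the 7. A match describes the sequence and is not a measured binding site. Bases outside these windows were not searched, so a motif that is absent here may lie further upstream.

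Total counts per library lay between 39326672 and 50532209, and 3 counts, taken as the floor, equal 0.0607 to 0.0785 CPM (counts scaled to the TMM-adjusted library size). The lowest count of any of the 10 genes was 57, for Nr4a1, so depth did not limit their detection. The floor covers counting error only, because reads were not tagged by molecule and are not independent of each other. Replicates 1 and 2 formed one pair and replicates 3 and 4 another in each group. The chi-square per gene between 2 libraries of a group was 8.97 to 40.3 inside these pairs and 136 to 341 across them. No label names what separates the pairs, nor whether each library came from its own animal, so p-values measure the spread between these libraries. Mitochondrial transcripts took 3.68% to 4.95% of counts. Itgax, encoding the dendritic cell marker CD11c, was at 747.9 to 1407 CPM in all 8 libraries. Of the 12 dendritic cell markers listed, however, 3 were lower in BMDC-fer by the test given below (5.91% of all tested genes), and Itgax was not among them. Since these are bulk libraries, fewer cells that express a gene and less RNA per cell cannot be told apart.

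Between BMDC-fer and BMDC, Jun and Egr1 rose and Egr3 fell, and the other 7 genes did not pass the test (n = 4 libraries per group). The test was the quasi-likelihood test of edgeR, adjusted by Benjamini-Hochberg over all tested genes, and a call needed both an adjusted p no greater than 0.05 and a log2 fold change of at least 0.58 in size. The 3 of 10 called compare with 9.38% of all tested genes, 3.47% called higher and 5.91% called lower. These 3 genes were also those whose groups did not overlap, as held for 22.9% of all tested genes. For Fos, Fosb, Junb, Nr4a1 and Dusp1 the BMDC replicates differed among themselves by several fold.

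**Figure D1:**
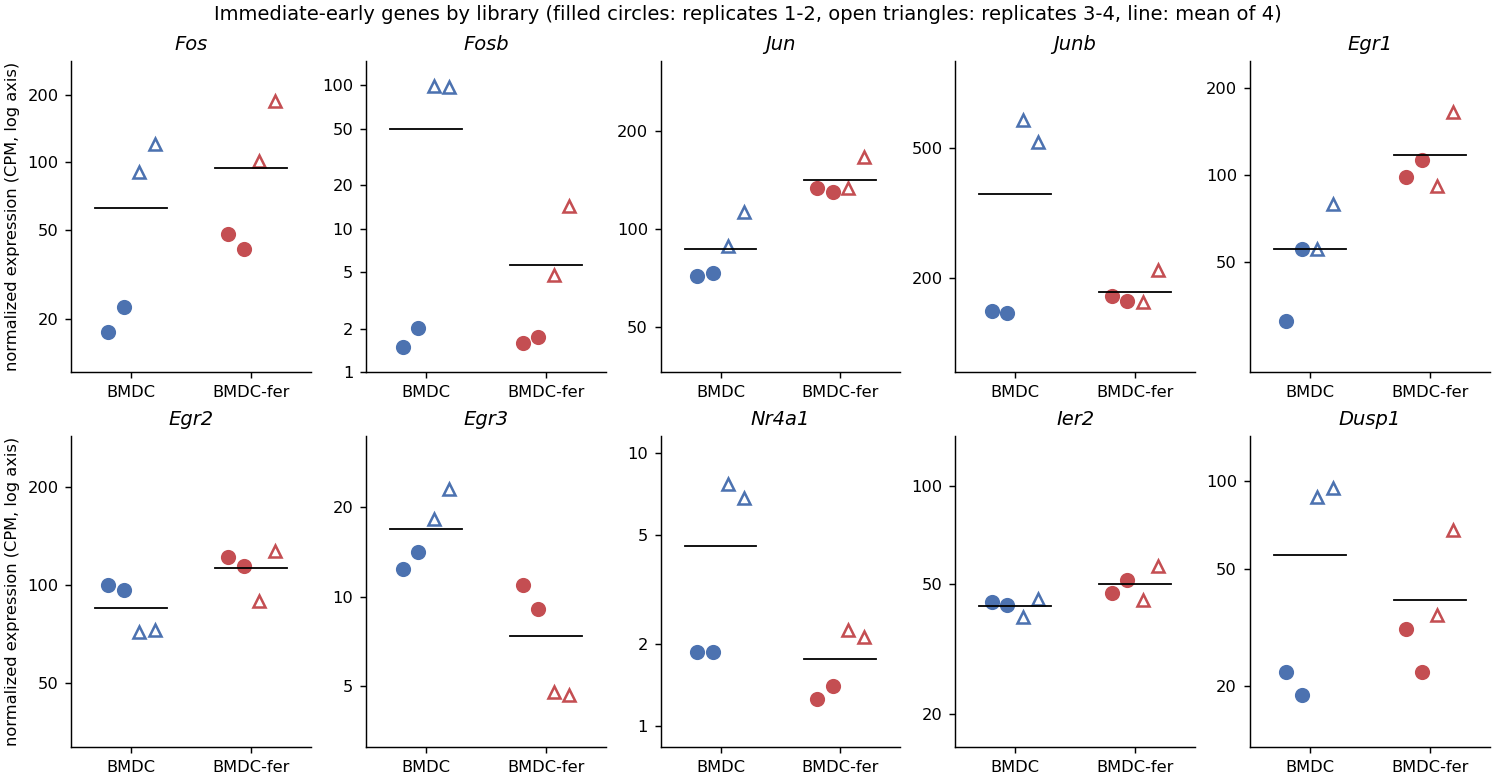
Normalized expression (CPM, log axis) of the 10 genes in 4 BMDC (blue) and 4 BMDC-fer (red) libraries, with circles for replicates 1 and 2, triangles for replicates 3 and 4 and a line at the mean of 4. Jun and Egr1 sat higher and Egr3 lower in all 4 BMDC-fer libraries, whereas Fosb, Junb, Nr4a1 and Dusp1 stood highest in BMDC replicates 3 and 4.

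Fos (ENSMUSG00000021250, chr12:85473890-85477273 on GRCm38, which is mm10, plus strand), the founding member of its family and an obligate partner of JUN proteins, was at 17.5, 22.6, 90.1 and 120.4 CPM in BMDC replicates 1 to 4. In BMDC-fer replicates 1 to 4 it was at 48.0, 41.3, 101.3 and 188.1 CPM. Each BMDC-fer library was above the BMDC library of the same number, but the groups overlapped, because replicates 3 and 4 were the higher ones in both. The means were 62.6 ± 50.8 and 94.7 ± 67.8 CPM (SD, n = 4), and the log2 fold change of 0.60 (SE 0.70, 95% interval -0.99 to 2.18) did not pass the test (edgeR adjusted p = 0.596). With a term for the replicate pair, a fit that called 18.3% of all tested genes, it was 0.80 and passed (edgeR adjusted p = 0.0321).

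Fosb (ENSMUSG00000003545, chr7:19302696-19310051, minus strand), a FOS protein with a strong activation domain, gave the widest spread. It was at 1.498 and 2.02 CPM in BMDC replicates 1 and 2 and at 98.6 and 97.4 CPM in replicates 3 and 4. The BMDC-fer libraries held 1.60, 1.76, 4.74 and 14.3 CPM. Every BMDC-fer library lay far below BMDC replicates 3 and 4, and BMDC-fer replicates 1 and 2 were at the level of BMDC replicates 1 and 2. The raw counts behind the low values were 65 and 96 in BMDC and 79 and 72 in BMDC-fer. The log2 fold change of -3.16 (SE 1.38, 95% interval -6.30 to -0.02) was the largest in size of the 10 and did not pass the test (edgeR adjusted p = 0.164).

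Jun (ENSMUSG00000052684, chr4:95049034-95052222, minus strand, a single exon) encodes the subunit through which AP-1 auto-activates its own gene. It was at 71.7, 73.1, 88.6 and 112.5 CPM in BMDC and at 133.7, 129.9, 133.7 and 165.9 CPM in BMDC-fer. Every BMDC-fer library exceeded every BMDC library. Jun rose from 86.5 ± 19.0 to 140.8 ± 16.9 CPM (SD, n = 4), a log2 fold change of 0.70 (SE 0.16, 95% interval 0.33 to 1.07, edgeR adjusted p = 0.0288). Leaving out 1 library at a time ended the call for 7 of the 8 libraries, all but BMDC replicate 4, with a log2 fold change of 0.62 to 0.74 where it ended. The antisense transcript Junos shares 5.83% of the 50-base words of Jun, so without stated strand use a small part of the Jun counts cannot be told from it.

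Junb (ENSMUSG00000052837, chr8:84974484-84978718, minus strand), a JUN protein that can restrain JUN at some genes, was at 158.0, 155.9, 612.4 and 521.5 CPM in BMDC. In BMDC-fer the 4 libraries were close together, at 176.3, 170.0, 168.2 and 212.3 CPM. The BMDC-fer values thus lay just above the lower BMDC pair and far below the upper pair. The group means of 362 ± 239.6 and 181.7 ± 20.7 CPM (SD, n = 4) differed by -0.99 on the log2 scale (SE 0.45, edgeR adjusted p = 0.173), which did not pass.

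Egr1 (ENSMUSG00000038418, chr18:34859823-34864984, plus strand), the classic target of ERK and SRF, was at 31.5, 55.7, 55.8 and 79.2 CPM in BMDC. It was at 98.5, 112.2, 91.7 and 164.5 CPM in BMDC-fer, each above the highest BMDC library. Egr1 rose from 55.5 ± 19.5 to 116.7 ± 33.0 CPM (SD, n = 4), a log2 fold change of 1.07 (SE 0.29, 95% interval 0.43 to 1.72, edgeR adjusted p = 0.0437). This was the largest rise among the 10 genes. Its call too ended on leaving out any library but BMDC replicate 4, with a log2 fold change of 0.87 to 1.18 where it ended.

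Egr2 (ENSMUSG00000037868, chr10:67535475-67542188, plus strand), which in myeloid cells favours macrophage over neutrophil genes, was at 100.1, 96.6, 71.4 and 72.6 CPM in BMDC. In BMDC-fer it was at 121.4, 114.4, 88.9 and 127.3 CPM, above the same-numbered BMDC library each time. Here BMDC replicates 3 and 4 were the lower ones. The log2 fold change of 0.41 (SE 0.16, 95% interval 0.04 to 0.77) did not pass (edgeR adjusted p = 0.129).

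Egr3 (ENSMUSG00000033730, chr14:70077203-70082614, plus strand), known as a brake on T-cell activation together with EGR2, was at 12.4, 14.1, 18.2 and 23.1 CPM in BMDC. It was at 10.95, 9.08, 4.79 and 4.69 CPM in BMDC-fer. No library of one group reached the other, and the distance was widest in replicates 3 and 4. Egr3 fell from 16.9 ± 4.79 to 7.38 ± 3.14 CPM (SD, n = 4), a log2 fold change of -1.20 (SE 0.33, 95% interval -1.94 to -0.45, edgeR adjusted p = 0.0475). With the replicate number as a block, which called 13.0% of all tested genes, the call was lost (edgeR adjusted p = 0.0783), and it was lost on leaving out any library but BMDC-fer replicate 1, with a log2 fold change of -1.31 to -1.01 where it was lost.

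Nr4a1 (ENSMUSG00000023034, chr15:101254269-101274795, plus strand), a nuclear receptor that acts without a known hormone and dampens inflammatory genes in macrophages, was the least abundant of the 10. It was at 1.87, 1.87, 7.71 and 6.88 CPM in BMDC and at 1.26, 1.395, 2.25 and 2.12 CPM in BMDC-fer. Each BMDC-fer library was below the BMDC library of its number, while BMDC-fer replicates 3 and 4 were above BMDC replicates 1 and 2. The log2 fold change of -1.38 (SE 0.52, 95% interval -2.56 to -0.20) missed the threshold in edgeR (adjusted p = 0.115). It passed in DESeq2 (adjusted p = 0.0369) and in edgeR with a term for the replicate pair (adjusted p = 0.0146).

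Ier2 (ENSMUSG00000053560, chr8:84661331-84662852, minus strand), a small nuclear protein induced by growth factors, was the steadiest of the 10. BMDC libraries held 44.1, 43.3, 39.8 and 45.1 CPM and BMDC-fer libraries 47.2, 51.4, 44.8 and 56.9 CPM. All were higher than the same-numbered control, by a log2 fold change of 0.22 over all libraries (SE 0.11, 95% interval -0.02 to 0.46, edgeR adjusted p = 0.201). The interval leaves out a change of 0.58, the size required for a call.

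Dusp1 (ENSMUSG00000024190, chr17:26505590-26562128, minus strand) was at 22.3, 18.5, 88.0 and 94.9 CPM in BMDC. In BMDC-fer it was at 31.3, 22.3, 34.8 and 68.0 CPM. BMDC-fer was higher in replicates 1 and 2 and lower in replicates 3 and 4, and the log2 fold change over all libraries was -0.52 (SE 0.58, 95% interval -1.83 to 0.80, edgeR adjusted p = 0.578). In the annotation, exons of Dusp1 overlap those of Ergic1 and exons of Junb those of Prdx2, each on the opposite strand.

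The groups were then compared inside each replicate pair, in a fit of 4 cells (group by replicates 1 and 2 or 3 and 4), which measures the spread inside the pairs only. In replicates 1 and 2, Fos rose by 1.16, Jun by 0.86 and Egr1 by 1.27 on the log2 scale (edgeR adjusted p = 0.00926, 0.00104 and 0.0118). These were the 3 called, against 22.3% of all tested genes (9.36% higher), and no gene of the 10 was called lower (12.9% of all tested genes). In replicates 3 and 4, 7 were called, against 33.0% of all tested genes. Egr1 (0.92, adjusted p = 0.0339) and Egr2 (0.59, adjusted p = 0.00746) rose there, as did 16.8% of all tested genes (edgeR). Lower in that pair were Fosb, which fell by 3.37, Egr3 by 2.12, Nr4a1 by 1.74, Junb by 1.57 and Dusp1 by 0.83 on the log2 scale (edgeR adjusted p = 0.000139, 1.8e-05, 8.3e-05, 1.9e-05 and 0.0291), where 16.2% of all tested genes were lower. Jun, at 0.57 with an adjusted p of 0.00499 in edgeR, was just under the fold limit in that pair. Egr1 was the one gene of the 10 called in both pairs.

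**Figure D2:**
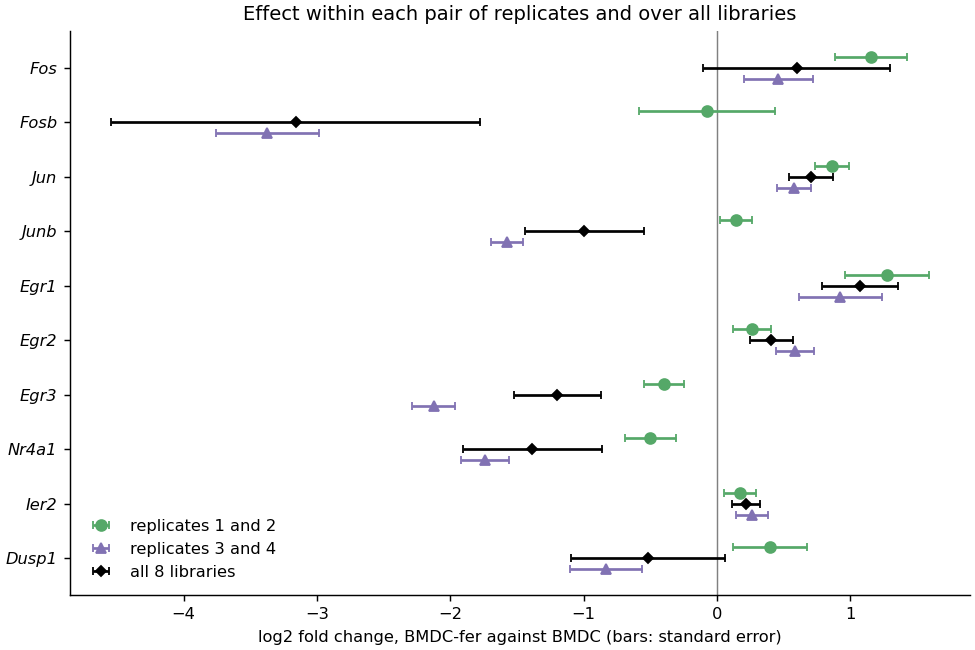
Log2 fold change of BMDC-fer against BMDC for each gene, with standard errors as bars, for replicates 1 and 2 (green circles), for replicates 3 and 4 (purple triangles) and over all 8 libraries (black diamonds). Jun, Egr1, Egr2 and Ier2 had like values in both pairs, while Fosb, Junb, Egr3, Nr4a1 and Dusp1 were far lower in replicates 3 and 4.

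The difference between the 2 effects was tested as an interaction. It passed for 5 of the 10 genes, against 37.8% of all tested genes, and each of the 5 was lower in replicates 3 and 4. The effect on Fosb differed by -3.30 (SE 0.64), on Junb by -1.72 (SE 0.17), on Egr3 by -1.72 (SE 0.22), on Nr4a1 by -1.24 (SE 0.26) and on Dusp1 by -1.23 (SE 0.39) on the log2 scale. The edgeR adjusted p-values were 0.00400, 0.000188, 0.000622, 0.00641 and 0.0340. For Dusp1 the interaction was no longer called without any 1 of the 4 BMDC libraries or without BMDC-fer replicate 1. For Junb and Dusp1 the sign of the estimate changed, from 0.14 to -1.57 and from 0.39 to -0.83. Neither value above 0 in replicates 1 and 2 passed (edgeR adjusted p = 0.374 and 0.289). Differences of -0.70 for Fos, -0.29 for Jun, -0.35 for Egr1, 0.32 for Egr2 and 0.09 for Ier2 did not pass (edgeR adjusted p = 0.175, 0.240, 0.566, 0.230 and 0.717).

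For Fosb, Fos, Dusp1, Nr4a1 and Junb the distance between the pairs was wider in the untreated cells than in BMDC-fer. Replicates 3 and 4 of BMDC averaged 55.7 times replicates 1 and 2 for Fosb, 5.26 times for Fos, 4.48 times for Dusp1, 3.90 times for Nr4a1 and 3.61 times for Junb. For Fosb, with a log2 difference of 5.79, only 7 of the 15411 tested genes differed more in size. In BMDC, 5 of the 10 genes were higher by a log2 of 1 or more in replicates 3 and 4, as were 9.60% of all tested genes, and none of the 10 was lower by as much. In BMDC-fer, Fos and Fosb were higher by as much (1.70 and 2.495), as were 4.41% of all tested genes. Junb, with a log2 difference of 1.85 in BMDC, differed by 0.14 in BMDC-fer. Egr3 went opposite ways, with 0.64 in BMDC and -1.08 in BMDC-fer. These differences inside a group are given without a test. The summed level of the 12 dendritic cell markers was 20400 and 14460 CPM in BMDC replicates 1 and 2 and 10620 and 10210 CPM in replicates 3 and 4. Cd74 alone held 9576 CPM of the sum in BMDC replicate 1. In BMDC-fer the sum was 11330, 7881, 7536 and 7454 CPM, with replicate 2 close to replicates 3 and 4. In each group 7 of the 12 were lower by a log2 of 1 or more in replicates 3 and 4. So were 1950 of the 15411 tested genes in BMDC and 911 in BMDC-fer. Among the 7, H2-Aa and H2-Ab1, MHC class II genes, were at 2948 and 3889 CPM in BMDC replicate 1 and at 1108 and 1095 CPM in replicate 4. Itgax and Csf2ra went the other way in both groups (0.65 and 0.54 in BMDC), as did Csf2rb in BMDC-fer (0.77). The part of culture composition in the split of the immediate-early genes was not tested.

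Per kilobase of exon, which lets genes be compared roughly, Junb was the most abundant of the 10 in both groups, with a mean of 157 ± 104 CPM per kilobase in BMDC and 79.0 ± 9.0 in BMDC-fer (SD, n = 4). The length used was that of all annotated exons joined. It equals the longest transcript for Jun (3189 bases), Egr1 and Ier2 and exceeds it for the other members. For Fosb it is 6243 against 3782 bases, for Dusp1 3311 against 2313, for Nr4a1 3509 against 2553 and for Junb 2301 against 1809. The genes where it is longer thus read lower than by their longest transcript. In BMDC, Ier2 (28.3 ± 1.51), Jun (27.1 ± 5.94), Fos (26.6 ± 21.6) and Egr2 (25.1 ± 4.50 CPM per kilobase) followed and did not differ beyond their spread. Dusp1 (16.9 ± 12.4), Egr1 (12.4 ± 4.35) and Fosb (7.99 ± 8.90) came next with overlapping spreads, and Egr3 (3.84 ± 1.09) and Nr4a1 (1.31 ± 0.898) had the lowest means. In BMDC-fer the order was Junb, Jun (44.2 ± 5.29), Fos (40.3 ± 28.8), Egr2 (33.3 ± 4.98), Ier2 (32.9 ± 3.47), Egr1 (26.0 ± 7.36), Dusp1 (11.8 ± 6.03), Egr3 (1.67 ± 0.713), Fosb (0.896 ± 0.955) and Nr4a1 (0.50 ± 0.144 CPM per kilobase). The neighbours from Jun to Egr1 were within their spread, as were Egr3, Fosb and Nr4a1. These means pool replicate pairs that differ. In BMDC replicates 1 and 2, Fosb (mean 0.282 CPM per kilobase) was below Nr4a1 (0.533) and Egr3 (3.00), and in replicates 3 and 4 it was above both (15.7 against 2.08 and 4.69). In BMDC-fer, Fosb was likewise below Egr3 in the first pair (0.269 against 2.27) and above it in the second (1.52 against 1.08).

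The makeup of AP-1 transcripts differed between libraries. Within the FOS family (Fos, Fosb, Fosl1, Fosl2), Fos made up 49.1%, 53.4%, 53.7% and 60.6% of the transcripts per kilobase in BMDC and 71.5%, 71.0%, 82.2% and 88.3% in BMDC-fer. The 2 ranges did not overlap. Fosb took 18.5% and 22.1% in the high BMDC pair and at most 2.52% elsewhere. Fosl2, a FOS protein without the strong activation domain of FOS, took 20.1% to 49.0% in BMDC and 9.01% to 27.6% in BMDC-fer. In the JUN family Jun took 7.93% to 17.02% in BMDC and 25.9% to 28.9% in BMDC-fer. Junb took 45.6% and 50.3% in BMDC replicates 1 and 2, 75.9% and 70.5% in replicates 3 and 4, and 47.3% to 51.2% in BMDC-fer. The sum of the JUN family was 150.8, 134.6, 350.5 and 321.4 CPM per kilobase in BMDC and 150.8 to 180.1 in BMDC-fer. These shares are descriptions of transcripts, without a test, and depend on the same joined exon lengths.

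**Figure D3:**
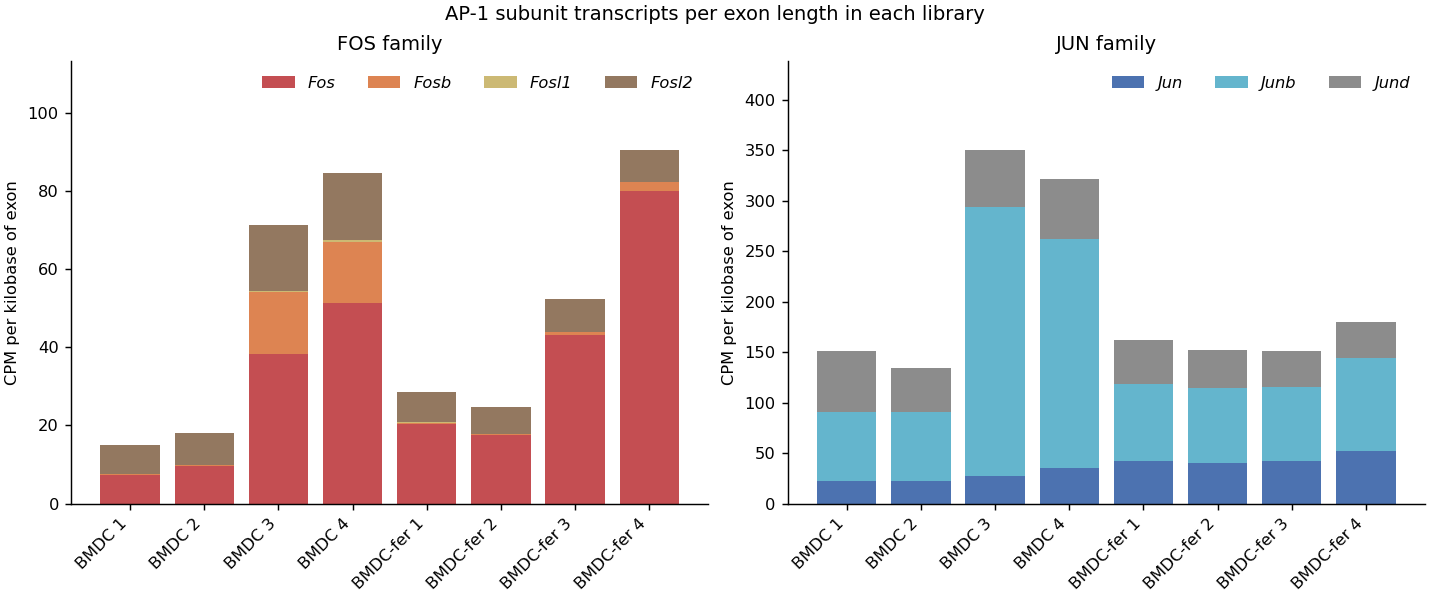
Stacked levels (CPM per kilobase of exon) of FOS family transcripts (left) and JUN family transcripts (right) in each of the 8 libraries. The Fosb and Junb segments were largest in BMDC replicates 3 and 4, and the FOS family sum ranged from 15.1 to 84.5 in BMDC and from 24.7 to 90.6 in BMDC-fer.

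Among the EGR genes, Egr1 made up 17.9%, 28.2%, 33.1% and 39.9% of transcripts per kilobase in BMDC and 36.5%, 41.2%, 42.9% and 48.8% in BMDC-fer, while Egr3 made up 7.14% to 11.8% in BMDC and 1.41% to 4.13% in BMDC-fer. Egr2 was the main EGR transcript in every library, with 48.2% to 75.0% in BMDC and 49.8% to 59.4% in BMDC-fer. In the NR4A family, Nr4a1 was the minor member beside Nr4a3, which took 66.8% to 92.9% in BMDC and 57.5% to 92.4% in BMDC-fer. Nr4a2 and Nr4a3, with log2 fold changes of -2.82 and -1.71, had edgeR adjusted p-values of 0.0577 and 0.0604, and Nr4a3 passed with the replicate block (adjusted p = 0.0440).

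Genes that work with the 10 were counted from lists. Of 13 partners of AP-1 (other FOS, JUN, ATF, BATF and MAF genes), 1 rose and none fell, against 3.47% and 5.91% of all tested genes, with a median log2 fold change of -0.26 (0.000687 over all tested genes). The one that rose was Batf, an AP-1 factor that pairs with JUN proteins in dendritic cells, from 13.7 ± 2.75 to 26.3 ± 6.54 CPM (SD, n = 4, log2 fold change 0.94, edgeR adjusted p = 0.0290). Jund, at -0.53, had an edgeR adjusted p of 0.0313 and was under the fold limit. The median of this list was 0.11 within the first pair and -0.70 within the second. The interaction passed for 8 of 13, against 37.8% of all tested genes. Of the EGR and NR4A partners (Egr4, Nab1, Nab2, Nr4a2, Nr4a3), 4 were tested, none was called (Nr4a3 alone with the block), and the largest difference was that of Nr4a2.

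Of 37 other immediate-early genes tested, 1 rose and 5 fell, against 3.47% and 5.91% of all tested genes, with a median log2 fold change of -0.26. Id1, an inhibitor of helix-loop-helix factors, rose by 1.08 (edgeR adjusted p = 0.0194). Csrnp1 fell by 2.02, the neuronal immediate-early gene Arc by 1.84 and the repressor Bhlhe40 by 1.51 on the log2 scale (edgeR adjusted p = 0.0489, 0.0407 and 0.00666), and Csrnp1 lost its call with the replicate block (adjusted p = 0.107). The interaction passed for 27 of the 37 (73.0%, against 37.8% of all tested genes), and 21 of the 27 were lower in replicates 3 and 4. In BMDC, 15 of the 37 were higher by a log2 of 1 or more in replicates 3 and 4, and in BMDC-fer none, against 9.60% and 4.41% of all tested genes. Among these 15, chosen after their values were seen, Rgs1, a regulator of G-protein signals, was at 17.9, 23.2, 303.3 and 260.9 CPM in BMDC and at 99.3, 85.7, 116.0 and 234.1 CPM in BMDC-fer. Per1, a clock gene that CREB induces, was at 20.7, 18.6, 162.8 and 166.6 CPM in BMDC and at 16.1 to 23.1 CPM in BMDC-fer. Nfil3, a repressor needed for some dendritic cells, was at 15.2, 16.8, 139.5 and 127.8 CPM in BMDC and at 12.4 to 28.5 CPM in BMDC-fer. Per1 and Nfil3 were high in BMDC replicates 3 and 4 alone, whereas Rgs1 was also higher in BMDC-fer than in BMDC in replicates 1 and 2.

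**Figure D4:**
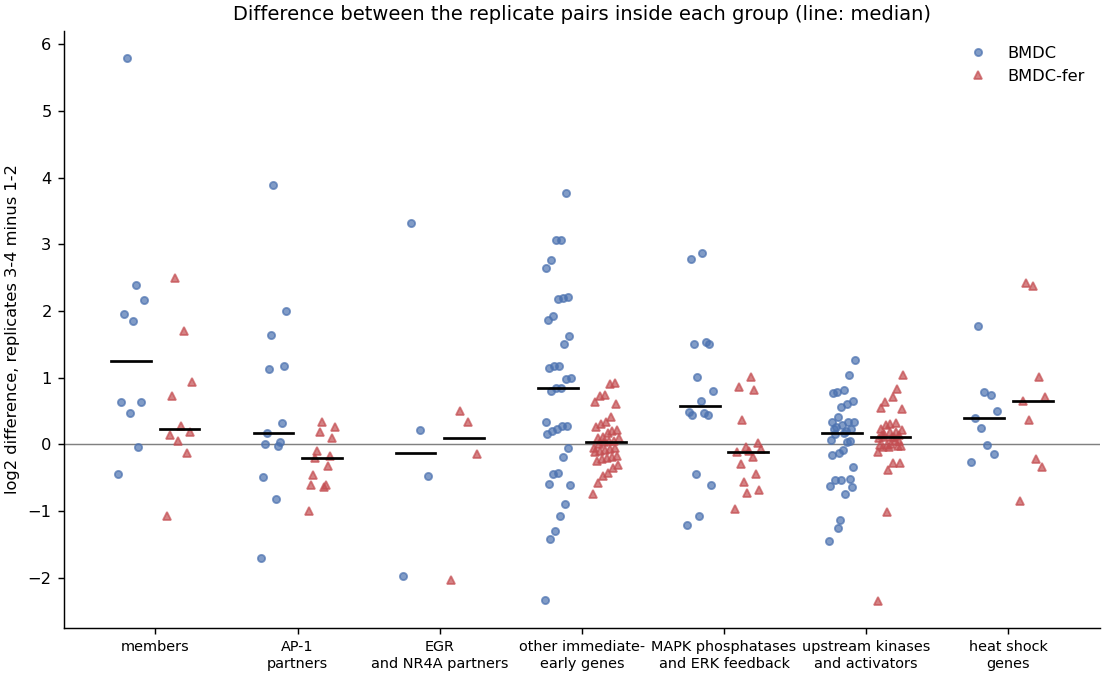
Log2 difference between replicates 3 and 4 and replicates 1 and 2 inside BMDC (blue circles) and inside BMDC-fer (red triangles), with 1 point per gene and a line at each list's median. The medians for the 10 genes were 1.248 in BMDC and 0.23 in BMDC-fer, and for the other immediate-early genes 0.84 and 0.03.

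Of 16 MAP kinase phosphatases and ERK feedback genes tested, 1 rose and 4 fell, where 3.47% and 5.91% of all tested genes did, and the median log2 fold change was -0.39. Dusp3, a small phosphatase of ERK and JNK, rose by 0.97 (edgeR adjusted p = 0.0142). Dusp14, Dusp5 and Dusp16 fell by 2.33, 1.65 and 1.41 on the log2 scale (edgeR adjusted p = 0.0271, 0.00812 and 0.00466), Dusp14 at a mean of 0.635 CPM in BMDC. Dusp5 acts on nuclear ERK and Dusp16 on JNK and p38. The relatives of Dusp1 thus differed in direction, while Dusp1 itself did not pass. With the replicate block 7 of 35 upstream kinases and activators tested fell, where 1253 of the 15411 tested genes did. Without it none rose and 4 fell, against the same background shares of 3.47% and 5.91%. Among the 4 were Rps6ka5, the kinase MSK1 that phosphorylates CREB and histone H3 at immediate-early genes, which fell by 1.56 (edgeR adjusted p = 0.00207), Mef2c by 1.21 (0.00585) and the CREB coactivator gene Crtc3 by 0.70 (0.0488) on the log2 scale. Their list had a median log2 fold change of -0.09. Of 9 heat shock genes tested, 2 rose and none fell, against 3.47% and 5.91% of all tested genes. Hsph1 and Hspa8, chaperones of the HSP110 and HSP70 classes, rose by 1.00 and 0.83 (edgeR adjusted p = 0.0434 and 0.0469), Hsph1 without a call under the replicate block (adjusted p = 0.0600), and the median log2 fold change was 0.48.

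Markers of other cells were set beside these results. The summed level of 10 neutrophil markers was 265.3, 46.5, 236.2 and 63.3 CPM in BMDC and 14.6 to 44.2 CPM in BMDC-fer, with 6 of 10 called lower (5.91% of all tested genes), among them Ly6g and S100a9 (log2 fold changes of -2.75 and -3.73). With the replicate block, which called 1253 of the 15411 tested genes lower, all 10 were called lower, S100a8 (-1.50 without the block) included. The sum was highest in BMDC replicates 1 and 3. Elane, Mpo and Prtn3, at 0.11 to 3.88 CPM in BMDC, were instead higher in replicates 3 and 4, with log2 pair differences of 2.35, 2.17 and 0.93. Macrophage markers summed to 2373 to 3641 CPM in BMDC and 2862 to 4725 CPM in BMDC-fer, and 1 of 10 was called lower, Adgre1 (log2 fold change -0.81), while Mertk and C1qa (0.49 and 0.54) did not pass. Of 12 dendritic cell markers 3 were called lower (5.91% of all tested genes) and none higher. The 3 were Flt3, Dpp4 and Irf4 (log2 fold changes of -4.06, -3.10 and -1.42). With the replicate block 9 of the 12 were lower, where 1253 of the 15411 tested genes were. H2-Aa (log2 fold change -1.29) and H2-Ab1 (-1.62) did not pass without the block and passed with it (edgeR adjusted p = 0.00651 and 0.00404), and Itgax (-0.10) did not pass in either fit. T cell markers summed to 36.8 to 44.0 and 35.6 to 56.6 CPM, mast cell and basophil markers to 35.0 to 65.7 and 14.6 to 33.1 CPM, and B cell markers to at most 1.54 CPM. Of these 3 lists, 1 T cell marker was called lower and none higher, and with the block 2 T cell markers (Cd3g included) and the mast cell gene Cpa3 were lower. Cd3d, Cd3e, Mcpt8, Ms4a2 and Cd79a did not pass the filter on low counts, and Cd3g, Cpa3 and Cd79b (log2 fold changes of -3.57, -1.92 and 0.06) did not pass the test without the block. No listed marker was at 0 in every library. The part of the neutrophil and dendritic cell markers in the differences of Jun, Egr1 and Egr3 was not tested.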

How the data were processed

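BMDC and BMDC-fer poly(A) RNA libraries (4 each) had been mapped with HISAT2 to mm10 and counted per gene with featureCounts by the authors, who deposited raw counts without normalization. CASAVA and DESeq2 are also named in the submitters' processing notes. Annotation, use of strand and treatment of reads with several mapping places are not given in the sources used here. Counts on the human genome were not used here. Reads of human RNA that map to mm10 would remain in the mouse counts, and their share was not tested. The labels gave each library's group.

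Symbols came from GENCODE M21 (55227 of 55487 identifiers). Counts were TMM-scaled in edgeR 4.0.16 (R 4.3.3), filtered with filterByExpr (count minimum 10, 15411 genes kept) and tested by the quasi-likelihood test with Benjamini-Hochberg adjustment over all kept genes. The test code was checked on simulated counts. Deviations from the group means correlated between same-numbered libraries at r = 0.446, 0.355, 0.313 and 0.343 across genes. Same-pair libraries of different number correlated at 0.287 and 0.186 in replicates 1 and 2 and at 0.343 and 0.38 in replicates 3 and 4. In replicates 3 and 4 the unlike numbers thus correlated no less than the like ones, so the check cannot tell number from pair there. The replicate block and the comparisons by number therefore rest on the shared numbers in the labels. No library pair differed by less than sampling noise. Promoter windows came from RefSeq (GRCm38.p6).

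All 10 genes are named with every library's value, with up to 3 called rises and 3 called falls of each companion list (where none was called, the largest difference) and the first 3 of each marker list, of which 1 is not reported here. Jund, Nr4a3, Rgs1, Per1 and Nfil3 were named outside this rule after their values were seen. So were the markers Cd74, Csf2ra, Csf2rb, Flt3, Dpp4, Irf4, Elane, Mpo and Prtn3. The genes and lists were chosen with earlier results of these data known. DESeq2 1.42.0, other scalings and filters, the replicate block, a pair term and each library left out were alternatives.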

Additional observations from a re-analysis of the deposited data

Results flagged for a closer look

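In BMDC-fer, Jun in replicate 4 (165.9 CPM) stood apart from the other replicates (129.9 to 133.7 CPM), with a gap of 0.894 of the group's range which is above Dixon's 95% limit. This was 1 of 20 groups examined, and chance gives about 1.

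The effect of BMDC-fer against BMDC differed between replicates 3 and 4 and replicates 1 and 2, by the interaction test, for 5 genes. The log2 difference was -3.30 for Fosb, -1.72 for Junb, -1.72 for Egr3, -1.24 for Nr4a1 and -1.23 for Dusp1. The interaction passed for 37.8% of all tested genes, so such differences were common in these libraries.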

How the results depend on the processing

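Over 15 alternatives per gene, none of the 10 log2 fold changes turned its direction, but that of Fos was only 0.03 without BMDC-fer replicate 4. The comparisons inside each replicate pair, where Junb and Dusp1 had opposite signs, were not among these alternatives. Called among the 10 were 3 genes, and 5 with a term for the replicate pair (Fos, Jun, Egr1, Egr3 and Nr4a1), 4 with DESeq2 (with Nr4a1), 2 with the replicate block (Jun and Egr1), and between 0 and 2 on leaving out 1 library. None was called without BMDC replicate 1, 2 or 3 or BMDC-fer replicate 2, 3 or 4, 1 (Egr3) without BMDC-fer replicate 1, and 2 (Jun and Egr1) without BMDC replicate 4. The edgeR adjusted p where calls were lost was 0.0518 to 0.0801 for Jun, 0.0543 to 0.112 for Egr1 and 0.0506 to 0.121 for Egr3. Over all tested genes 1445 were called, 2261 with DESeq2, 2815 with the pair term and 2000 with the replicate block, and between 565 (without BMDC-fer replicate 4) and 1440 on leaving out 1 library. It was 862 and 879 without BMDC replicates 3 and 4, and 797 and 867 without BMDC-fer replicates 2 and 3. The block also ended the calls of Csrnp1 and Hsph1 and added calls in several companion and marker lists, Nr4a3, H2-Aa, H2-Ab1 and S100a8 among the named genes, with Cpa3 and Cd3g. Scaling by library totals alone moved the median of all genes to -0.0901 and the split from 534 higher and 911 lower to 300 and 1179, with the calls of Jun, Egr1 and Egr3 at 3. The interaction passed for 5 of the 10 genes and for 4 to 6 in 14 alternatives, 4 (without Dusp1) with library totals and with DESeq2. A pair left with 1 library was assumed to vary like the others. Which cultures, animals or days the replicate pairs stand for is not given, and the share of human reads in the mouse counts was not examined.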
